A study of Mus musculus with 12 samples.

Results

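The collagen genes are the members of the mouse genome whose symbol is Col, a number, a and a number, such as Col1a1, and their probes were taken from a microarray study of mTOR inhibitors in NIH3T3 cells, an established mouse embryonic fibroblast line. The rule is one of name alone and uses no measured value. Of 44 such symbols in the RefSeq gene table, 39 had at least 1 probe, 67 probes in all, among 32678 genes on the array (17178 of them with a symbol). The other 5, Col6a3, Col6a5, Col12a1, Col20a1 and Col22a1, were not analysed here. Cells received 2 µM PP242, 50 nM rapamycin or the solvent DMSO for 18 h, and each group had 4 one-colour Agilent arrays, 1 per culture, which the design text calls separate experiments. The treatment protocol writes 2 mM for PP242, against 2 µM in the other labels. PP242 blocks the catalytic site of the mTOR kinase and so reaches both of its complexes, mTORC1 and mTORC2, whereas rapamycin binds FKBP12 and acts mainly on mTORC1. All groups share the same unmodified line, and each compound was given at a single dose, so differences between the compounds are differences between these treatments.

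Collagens are triple helices of alpha chains, and the symbol gives the type and then the chain. The fibrillar types (I, II, III, V, XI, XXIV and XXVII) assemble into the banded fibrils of skin, bone, tendon and cartilage, with type V and XI chains inside the fibril, where they limit its width. Type IV chains form the sheet-like network of basement membranes, FACIT collagens such as types IX and XIV sit on the fibril surface, and type VI builds beaded microfilaments. Fibroblasts are the main source of types I, III, V and VI in connective tissue. mTORC1 is known to promote the translation of messenger RNA and the growth of cells, and mTORC2 acts on the kinase AKT.

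Values are log2 of the processed signal minus the 75th percentile of that array, so a value of 0 is the brightness of the 75th percentile probe. A probe's brightness depends on its own sequence, so levels are compared between arrays and not between genes. Each gene is represented by its brightest probe. On 8 arrays (PP242 2 and 3, rapamycin 1, 2 and 4, DMSO 1, 3 and 4) between 55.8% and 60.5% of probes were well above background. The remaining 4 arrays had raised signals at dim probes, and there the share was 84.2% on PP242 1, 96.2% on PP242 4, 97.9% on rapamycin 3 and 78.0% on DMSO 2. Results are led by the 8 arrays, and the fit of all 12 is given beside them. Within the 8, the arrays labelled replicate 4 (rapamycin 4 and DMSO 4) also stood apart for several collagens, as described further on, and the PP242 group of the 8 arrays has no array of that number.

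The label of a fibroblast line was set against marker lists on the 8 arrays. Of 8 fibroblast markers 6 were well above background on every array, while the 4 endothelial markers were so on none. The other lists were mixed: of 5 epithelial markers Krt14 was well above background on 8 arrays, Krt5 on 7 and Cdh1 and Epcam on none, and of 4 muscle markers Acta1 was so on 8, Des on 5 and Myod1 and Myog on none. Of 4 chondrocyte markers Acan, Comp and Sox9 were detected on 8 and Matn1 on none, of 4 adipocyte markers Fabp4 on 8 and Lep on none, and of 3 leukocyte markers with a probe Csf1r on 7. On the linear scale relative to the 75th percentile, the 7 fibroblast markers with a value on each of the 8 arrays summed to 376 to 562 on the PP242 arrays, 369 to 478 on the rapamycin arrays and 489 to 546 on the DMSO arrays. Of the 39 collagens, 25 were well above background on all 8 arrays, 6 on some and 8 on none. Among the fibrillar genes 10 of 11 were detected on all 8, and among the type IV genes 5 of 6. Of the remaining classes, detection on all 8 arrays held for 3 of 6 FACIT genes, 3 of 6 beaded filament and related genes, 1 of 2 multiplexins, 1 of 3 short chain genes, 1 of 4 transmembrane genes and the anchoring fibril gene Col7a1. The 8 genes detected on none of the 8 arrays were Col4a3, Col6a6, Col8a2, Col9a1, Col10a1, Col13a1, Col15a1 and Col26a1, and each of the 8 had such a call on 1 or more of the arrays with raised dim probes. In all, 26 collagens passed the detection filter on 8 arrays and 34 on 12.

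PP242 was first set against DMSO, which asks what inhibition of both mTOR complexes changes. On the 8 arrays 4 of 26 collagens were higher with PP242 and 1 was lower (limma adjusted p under 0.05). Over all 18044 genes tested 29.5% passed, 14.2% higher and 15.3% lower, so the collagens were not called more often than genes in general. The genes that rose were the fibrillar Col5a3 and Col11a2, the FACIT chain gene Col9a3 and the type IV gene Col4a6, and the gene that fell was Col4a1. The median log2 fold change of the 26 was 0.32, with a range of -0.99 to 1.45, against a median of -0.016 over all genes. The ends of the range, Col18a1 and Col14a1, did not pass, and both genes stood apart on DMSO 4, where Col14a1 was not well above background. Without the replicate 4 arrays they differed by -0.25 and 0.58. The groups did not overlap for 9 collagens that were higher and 3 that were lower, where 30.6% of all genes were separated in the upward and 30.6% in the downward direction. In the fit of 12 arrays 0 of 34 collagens passed with limma and 4 (Col3a1, Col5a3, Col9a3 and Col11a2) had an unadjusted p under 0.05. In that fit 0.441% of 23803 genes passed and 9.52% had an unadjusted p under 0.05.

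Col5a3 encodes the alpha 3 chain of type V collagen, a minor chain of the fibril-nucleating type V family. Its log2 values were -0.058 and -0.033 on PP242 2 and 3, against -1.67, -1.61 and -0.87 on DMSO 1, 3 and 4. The arrays with raised dim probes gave -0.24 and -0.22 for PP242 1 and 4 and -1.91 for DMSO 2. Every PP242 array lay above every DMSO array, and DMSO 4 was the DMSO array nearest to them. The gene rose by 1.34 ± 0.27 on the log2 scale (SE, n = 2 and 3), which is 2.53-fold (limma adjusted p = 0.0109). With all 12 arrays the difference was 1.38 ± 0.31 (limma adjusted p = 0.0989). A second, dim probe was well above background on 1 of the 8 arrays and differed by -0.33.

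Col11a2 encodes the alpha 2 chain of type XI collagen, best known from cartilage fibrils. It measured -2.53 and -2.5 on PP242 2 and 3, against -3.64, -3.72 and -3.06 on DMSO 1, 3 and 4, and rose by 0.96 ± 0.20 (1.95-fold, limma adjusted p = 0.0122). PP242 1 and 4 gave -2.21 and -2.41 and DMSO 2 gave -3.32, so the PP242 arrays were again all above the DMSO arrays. Its second probe, dimmer and detected on 6 of the 8 arrays, differed by -0.90, opposite in sign, and the mean of both probes differed by 0.029 (limma adjusted p = 0.961). The direction for Col11a2 therefore holds for its brighter probe.

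Col9a3 encodes the alpha 3 chain of type IX collagen, a FACIT type that coats cartilage fibrils. On PP242 2 and 3 it measured -4.32 and -4.01, against -5.07, -5.57 and -5.88 on DMSO 1, 3 and 4. The groups did not overlap and the gene rose by 1.34 ± 0.26 (2.54-fold, limma adjusted p = 0.0104). On the raised arrays it was at -2.72 and -2.75 for PP242 1 and 4 and at -4.55 for DMSO 2. With normexp background correction on the median signal the difference was 0.49 (limma adjusted p = 0.108). Since type IX and XI collagens are cartilage types, the 4 chondrocyte markers were summed on the linear scale: the sums were 1.5 to 1.56 on the PP242 arrays, 1.66 to 3.39 on the rapamycin arrays and 2.03 to 4.10 on the DMSO arrays. The upper ends came from rapamycin 4 and DMSO 4, and the other rapamycin and DMSO arrays of the 8 were at 1.66 to 2.11. Each sum was almost wholly Sox9 (mean log2 level 1.03, against -4.95 or lower for the other markers), so it does not describe the 4 markers as a set. Of the 4, detection held on all 8 arrays for Acan, Comp and Sox9 and on none for Matn1. With PP242 against DMSO, Acan differed by -0.76, Comp by -0.46 and Sox9 by -0.77, and 0 of these passed with limma. The part of these markers in the result was not tested. Col2a1, the chain of the main cartilage collagen, was -0.59 and -0.75 on PP242 2 and 3, against -1.48, -0.59 and -0.91 on DMSO 1, 3 and 4, and did not pass (difference 0.32 ± 0.36, limma adjusted p = 0.557).

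Type IV chains pair as neighbours on the chromosome: Col4a1 with Col4a2, Col4a3 with Col4a4, and Col4a5 with Col4a6, each pair transcribed in opposite directions from a shared stretch. Col4a1, whose chain makes up most of the ubiquitous basement membrane network, measured 1.67 and 1.77 on PP242 2 and 3, against 2.40, 2.5 and 2.84 on DMSO 1, 3 and 4. It fell by 0.86 ± 0.16 on the log2 scale (1.81-fold lower, limma adjusted p = 0.00835), and PP242 1 and 4 (1.58 and 1.85) lay below DMSO 2 (2.05) as well. Its second probe differed by -0.47. The partner Col4a2 measured 1.75 and 1.76 on the same PP242 arrays, against 1.84, 1.85 and 2.37 on the DMSO arrays. Those groups did not overlap, but the difference of -0.26 ± 0.20 did not pass (limma adjusted p = 0.368), and the raised arrays gave 1.51 and 1.65 for PP242 and 1.49 for DMSO 2.

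Col4a6, a chain of basement membranes around smooth muscle and some epithelia, went the other way. It measured 2.16 and 2.22 on PP242 2 and 3, against 1.68, 1.80 and 1.49 on DMSO 1, 3 and 4, a rise of 0.53 ± 0.16 (1.45-fold, limma adjusted p = 0.0423). PP242 1 and 4 gave 1.93 and 1.31 and DMSO 2 gave 1.44, so with all 12 arrays the groups overlapped. Its other probes differed by 0.56 and 0.099. Its partner Col4a5 was at -0.39 and -0.28 on PP242 2 and 3 and at -0.80, -0.31 and -0.97 on DMSO 1, 3 and 4, a difference of 0.35 ± 0.33 that did not pass (limma adjusted p = 0.466). Col4a4 differed by 0.037 ± 0.20 (limma adjusted p = 0.912).

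**Figure D1:**
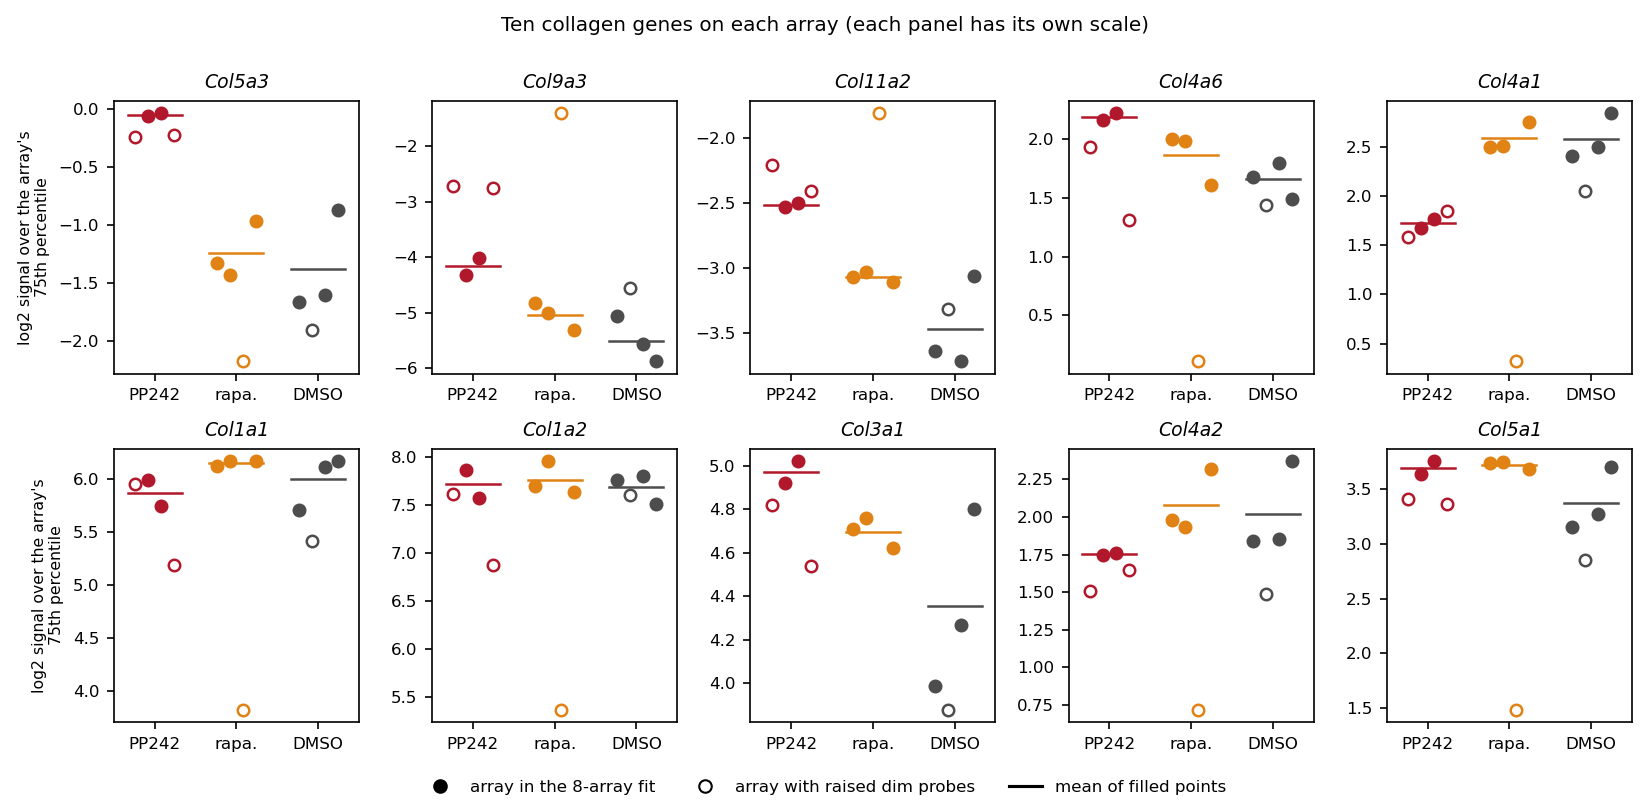
Log2 signal relative to each array's 75th percentile (vertical axis, own scale per panel) for 10 collagen genes on PP242, rapamycin and DMSO arrays; filled points are the 8 arrays, open points the 4 with raised dim probes, and lines the means of the filled points. Col5a3, Col9a3 and Col11a2 are higher on both filled PP242 points than on any filled DMSO point, Col4a1 is lower, and rapamycin 3 (an open point) is far from its group for Col1a1, Col1a2 and Col5a1.

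The most familiar fibroblast collagens showed no call. Col1a1 and Col1a2 encode the chains of type I collagen, the main fibril protein of skin and bone. Col1a1 measured 5.99 and 5.75 on PP242 2 and 3, against 5.71, 6.12 and 6.17 on DMSO 1, 3 and 4, a difference of -0.13 ± 0.16 (95% interval -0.51 to 0.24, limma adjusted p = 0.57). Col1a2 measured 7.87 and 7.58 on those PP242 arrays, against 7.76, 7.81 and 7.51 on the DMSO arrays, a difference of 0.035 ± 0.16 (-0.34 to 0.41, limma adjusted p = 0.889). In both genes the groups overlapped, and the intervals leave room for changes of up to about the size of their bounds. Col3a1, whose type III homotrimer accompanies type I in elastic tissues, was at 4.92 and 5.02 on PP242 2 and 3, against 3.99, 4.27 and 4.80 on DMSO 1, 3 and 4. The groups were apart, with DMSO 4 nearest to PP242, and the difference of 0.62 ± 0.23 did not pass (limma adjusted p = 0.0856). Col5a1, the main type V chain, measured 3.63 and 3.75 on PP242 2 and 3, against 3.15, 3.27 and 3.70 on DMSO 1, 3 and 4 (difference 0.32 ± 0.17, limma adjusted p = 0.204).

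On the raised arrays Col1a1 gave 5.96 and 5.19 for PP242 1 and 4 and 5.42 for DMSO 2, and Col1a2 gave 7.62 and 6.88 for PP242 and 7.61 for DMSO 2. Col3a1 gave 4.82 and 4.54 for PP242 1 and 4 and 3.88 for DMSO 2, and Col5a1 gave 3.41 and 3.36 for PP242 and 2.85 for DMSO 2. For these 4 genes the 12-array differences were between -0.18 (Col1a2) and 0.59 (Col3a1), and the limma adjusted p-values were 0.518 or more.

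The PP242 calls rest on few arrays. With slide as a block none of the 5 collagens passed (limma adjusted p from 0.0751 for Col5a3 to 0.217 for Col4a6), while 1922 of all genes still did, and without PP242 3 the count was 0. It was 1 (Col9a3) without PP242 2 and 8 without DMSO 4. With all 12 arrays the differences were 1.82 ± 0.81 for Col9a3, 1.02 ± 0.32 for Col11a2, 0.31 ± 0.42 for Col4a6 and -0.73 ± 0.48 for Col4a1, with limma adjusted p from 0.244 to 0.791. Slide 1, the only slide with PP242 and DMSO arrays among the 8, held 1 PP242 and 2 DMSO arrays and gave differences of 1.21 for Col5a3, 1.15 for Col9a3, 0.82 for Col11a2, 0.58 for Col4a6 and -0.95 for Col4a1.

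Promoter sequences are shown for Col5a3, Col11a2 and Col4a6, which rose with PP242, and for Col4a5, the partner of Col4a6 that did not pass, because the members of this pair lie next to each other on opposite strands. Each is the 250 bases before the transcription start in RefSeq, build GRCm38.p6, read 5′ to 3′ on the gene's own strand. Col5a3 is chr9:20815068-20815317 on the minus strand, Col11a2 is chr17:34038888-34039137 on the plus strand, Col4a6 is chrX:141474077-141474326 on the minus strand and Col4a5 is chrX:141475169-141475418 on the plus strand. Capitals mark the CCAAT box, the GC box with the letters GGGCGG, and the TATA box with the letters TATAAA, each searched on both strands, so that a motif on the other strand appears as its reverse complement. The marked motifs do not overlap each other in these windows.
Col5a3: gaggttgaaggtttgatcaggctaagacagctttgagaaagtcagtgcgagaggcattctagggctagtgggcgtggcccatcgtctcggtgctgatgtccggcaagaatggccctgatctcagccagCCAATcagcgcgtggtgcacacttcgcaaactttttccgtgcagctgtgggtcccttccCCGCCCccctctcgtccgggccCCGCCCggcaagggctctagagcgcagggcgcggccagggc
Col11a2: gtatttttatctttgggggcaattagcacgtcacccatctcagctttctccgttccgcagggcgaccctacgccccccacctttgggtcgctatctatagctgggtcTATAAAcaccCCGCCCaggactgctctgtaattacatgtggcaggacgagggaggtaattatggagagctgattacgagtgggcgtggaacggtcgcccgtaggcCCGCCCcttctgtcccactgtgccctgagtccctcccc
Col4a6: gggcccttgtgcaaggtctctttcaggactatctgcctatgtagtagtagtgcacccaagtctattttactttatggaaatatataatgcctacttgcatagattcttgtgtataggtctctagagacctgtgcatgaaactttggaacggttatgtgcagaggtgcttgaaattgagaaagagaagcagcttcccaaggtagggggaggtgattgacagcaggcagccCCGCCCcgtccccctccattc
Col4a5: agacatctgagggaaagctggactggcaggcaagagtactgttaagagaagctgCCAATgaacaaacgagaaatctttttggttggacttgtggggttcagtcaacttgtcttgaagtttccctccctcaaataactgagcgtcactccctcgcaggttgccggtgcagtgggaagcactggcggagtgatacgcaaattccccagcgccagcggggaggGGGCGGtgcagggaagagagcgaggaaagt

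Col5a3 held the CCAAT box beginning 122 bases before the start and the GC box, on the other strand, at 63 and 41 bases. Col11a2 held the TATA box at 143 bases and the GC box at 133 and 38 bases, and no CCAAT box in this window. Col4a6 held a single GC box, at 21 bases, and Col4a5 had the CCAAT box at 196 and the GC box at 30 bases. Among 38 promoters of 35 collagen genes, the CCAAT box occurred in 34.2%, the GC box in 57.9% and the TATA box in 13.2%, where 33.8%, 32.7% and 12.4% of all 32851 promoters of the table held them. These shares describe letters in the windows only. Of the other genes called with PP242, Col9a3 has no entry in the table and the Col4a1 window is not printed.

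By class, the fibrillar genes differed from DMSO by a median of 0.36 with PP242 (10 genes, range -0.22 to 1.34; 2 rose, 0 fell and 8 did not pass) and the type IV genes by a median of 0.037 (5 genes, range -0.86 to 0.53; 1 rose, 1 fell and 3 did not pass). The fibrillar members with negative differences were Col1a1 and Col5a2. Among the type V and XI chain genes, Col5a3 and Col11a2 passed, and Col5a1 (0.32), Col5a2 (-0.22) and Col11a1 (0.41) did not, with limma adjusted p from 0.125 to 0.627. Among the FACIT genes 1 of 4 rose, with a median difference of 0.94. That median includes Col14a1 (1.45), which stood apart on DMSO 4 and differed by 0.58 without the replicate 4 arrays. Beside these class counts, 14.2% of all genes tested were higher with PP242 and 15.3% lower. None of the 3 beaded filament genes, Col18a1, Col8a1, Col7a1 or Col17a1 passed, and their limma adjusted p-values were 0.447 or more.

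**Figure D2:**
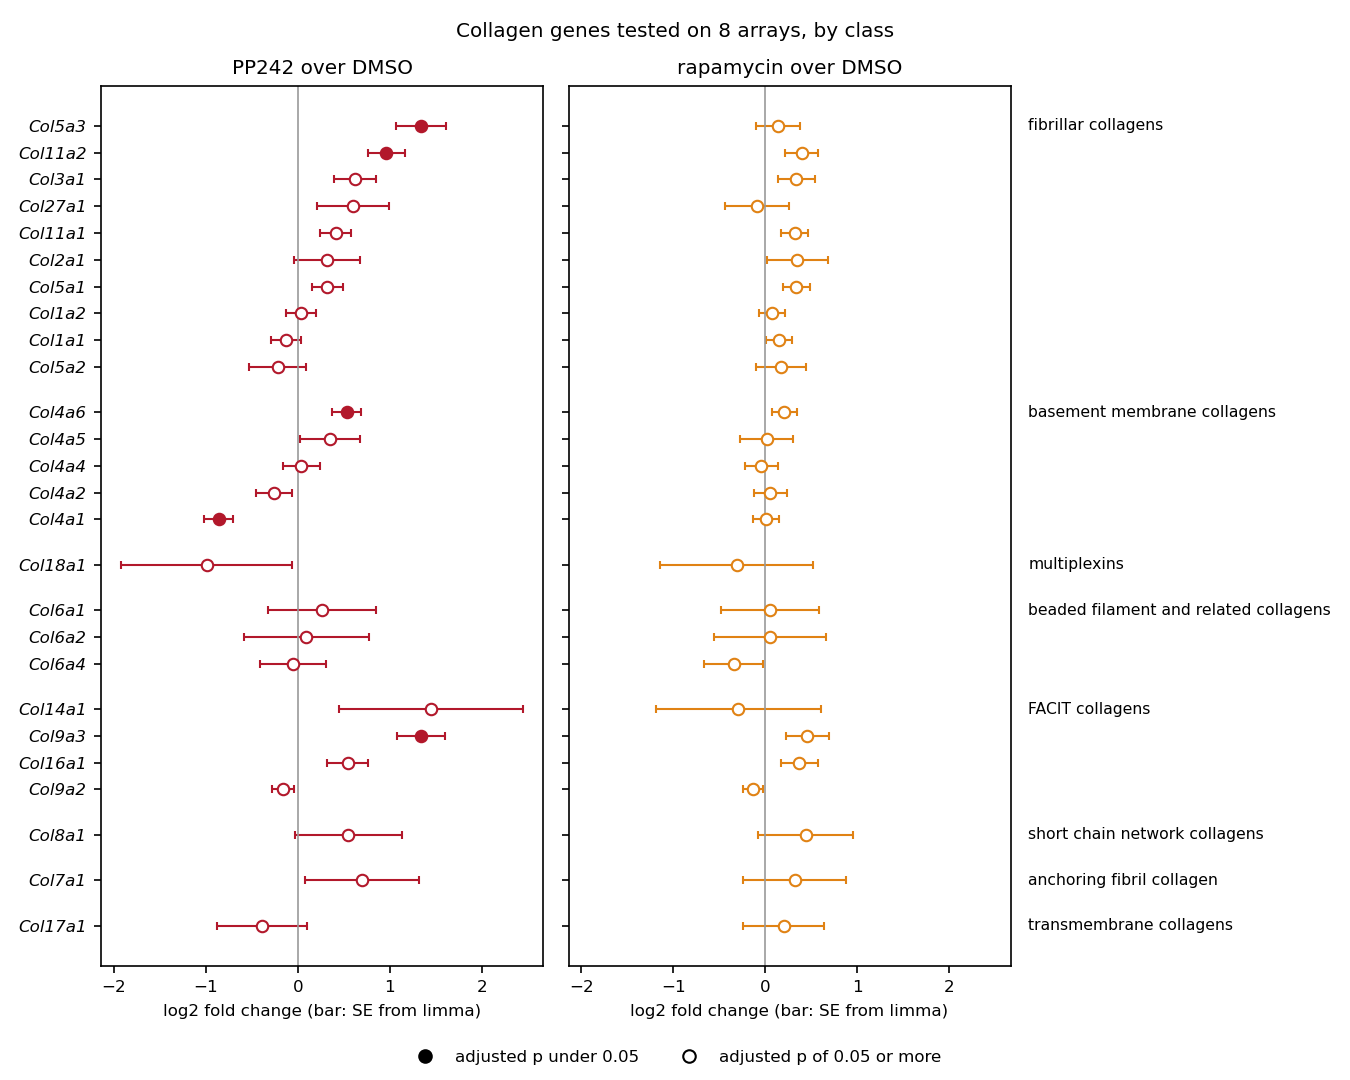
Log2 fold change over DMSO with its standard error from limma (horizontal axis) for the 26 collagens tested on the 8 arrays, PP242 on the left and rapamycin on the right, grouped by class; filled points have an adjusted p under 0.05. Filled points occur for 5 genes with PP242 and for none with rapamycin, and Col14a1 and Col18a1 have the widest bars.

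To set the fibrillar class against the type IV class without the fold changes of single genes, each array's difference from the DMSO mean was reduced to a median per class, and the type IV median was subtracted from the fibrillar median. This was 0.18 and 0.53 on PP242 2 and 3, 0.37, 0.39 and 0.12 on rapamycin 1, 2 and 4, and -0.15, -0.12 and 0.42 on DMSO 1, 3 and 4. DMSO 4 lay among the treated arrays, so the groups overlapped for both compounds and no separation of the classes by treatment was seen. For the fibrillar median alone the values were 0.39 and 0.40 with PP242, 0.34, 0.32 and 0.29 with rapamycin and -0.26, 0.017 and 0.25 with DMSO, without overlap among the 8 arrays. With all 12 arrays and their own DMSO mean, the raised arrays were at 0.43 and 0.52 for PP242 1 and 4, at -0.66 for rapamycin 3, below every DMSO array, and at -0.18 for DMSO 2. In that set DMSO 4 was at 0.34, close to rapamycin 1, 2 and 4 at 0.35, 0.35 and 0.36. How often such medians lie apart by chance was not tested. On the 8 arrays the type IV medians overlapped, at 0.21 and -0.13 with PP242, -0.033, -0.07 and 0.17 with rapamycin and -0.11, 0.14 and -0.17 with DMSO. PP242 and rapamycin share the DMSO arrays in these values. On the raised arrays of the 12-array set the difference between the classes was 0.10 and 0.81 on PP242 1 and 4, 0.51 on rapamycin 3 and 0.19 on DMSO 2.

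**Figure D3:**
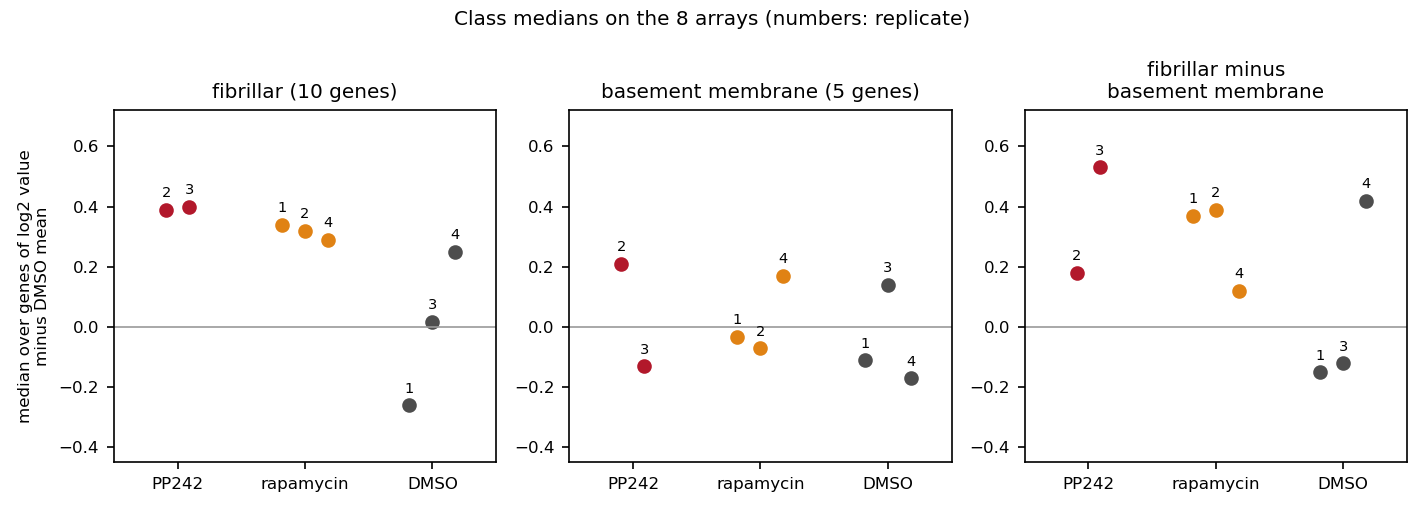
Median over genes of each array's log2 value minus the DMSO mean (vertical axis) for fibrillar genes, type IV (basement membrane) genes and their difference, on PP242, rapamycin and DMSO arrays of the 8-array set; numbers are replicate numbers. The fibrillar medians of PP242 (0.39 and 0.40) and rapamycin (0.29 to 0.34) lie above the highest DMSO array (0.25), and in the difference DMSO 4 (0.42) lies among the treated arrays.

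Rapamycin against DMSO, the comparison that bears on mTORC1 inhibition, gave no collagen call. On the 8 arrays 0 of 26 passed with limma and 0 had an unadjusted p under 0.05, where 0.205% of all genes passed and 14.0% had an unadjusted p under 0.05. None of the 26 had groups that did not overlap, where 19.2% of all genes did. The differences ran from -0.34 (Col6a4) to 0.46 (Col9a3) with a median of 0.15, and 6 of 26 were negative. Among the fibrillar genes the median was 0.25, and among the type IV genes 0.015. On 12 arrays 0 of 34 passed and 1, the weakly detected Col28a1, had an unadjusted p under 0.05, where 0% of all genes passed and 2.02% had an unadjusted p under 0.05. The median collagen difference was 0.18 on slide 1 and 0.26 on slide 3, the slides of the 8-array set that held both groups.

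The members named above were as follows with rapamycin 1, 2 and 4, the DMSO values being those already given. Col5a3 measured -1.33, -1.43 and -0.97 and differed from DMSO by 0.14 ± 0.24 (95% interval -0.42 to 0.71, limma adjusted p = 0.864). Col11a2 measured -3.07, -3.03 and -3.11 (0.40 ± 0.18, limma adjusted p = 0.38) and Col9a3 measured -4.82, -5.01 and -5.31 (0.46 ± 0.23, limma adjusted p = 0.451). Each of these groups overlapped DMSO in at least 1 array. Col4a1, the chain gene that fell with PP242, was at 2.5, 2.51 and 2.75 and differed by 0.0079 ± 0.14 (-0.33 to 0.34, limma adjusted p = 0.99). Its partner Col4a2 was at 1.98, 1.93 and 2.32 (0.056 ± 0.18, limma adjusted p = 0.939), and Col4a6 at 2.00, 1.98 and 1.61 (0.21 ± 0.14, limma adjusted p = 0.577).

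Among the major fibril genes, Col1a1 was at 6.13, 6.17 and 6.17 with rapamycin (0.15 ± 0.14, limma adjusted p = 0.71) and Col1a2 at 7.70, 7.96 and 7.64 (0.077 ± 0.14, limma adjusted p = 0.879). Col3a1 was at 4.71, 4.76 and 4.62 (0.34 ± 0.20, limma adjusted p = 0.514). Col5a1, at 3.73, 3.74 and 3.68, differed by 0.34 ± 0.15 (limma adjusted p = 0.371). In Col3a1 and Col5a1 rapamycin lay above DMSO 1 and 3 and not above DMSO 4. Rapamycin 3, with raised dim probes, had no usable Col3a1 value and gave 3.83 for Col1a1, 5.37 for Col1a2, 1.49 for Col5a1, 0.32 for Col4a1, 0.72 for Col4a2, 0.11 for Col4a6, -2.18 for Col5a3, -1.81 for Col11a2 and -1.40 for Col9a3.

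PP242 was also set directly against rapamycin, at the doses given, which asks what differs between an inhibitor of the kinase itself and one that acts mainly on mTORC1. On the 8 arrays 1 collagen of 26 was higher with PP242, Col5a3, and 1 was lower, Col4a1, where 16.4% of all genes passed, 7.92% higher and 8.51% lower. Col5a3 was higher by 1.2 ± 0.27 (2.29-fold, n = 2 and 3, 95% interval 0.56 to 1.83, limma adjusted p = 0.0276), and within slides 1 and 2 the difference was 1.27 and 1.39. Col4a1 was lower, with a difference of -0.87 ± 0.16 (1.82-fold, -1.24 to -0.49, limma adjusted p = 0.0143), and -0.83 and -0.74 within slides 1 and 2. With slide as a block neither passed (limma adjusted p = 0.124 and 0.0982), and leaving out PP242 2 or PP242 3 gave 0 calls. The groups did not overlap for 7 collagens that were higher and 5 that were lower, where 29.1% and 26.4% of all genes were separated in those directions.

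The other members did not pass in this comparison. Col9a3 differed by 0.88 ± 0.26 (0.26 to 1.51, limma adjusted p = 0.0672), Col11a2 by 0.56 ± 0.20 (0.092 to 1.03, limma adjusted p = 0.104) and Col4a6 by 0.33 ± 0.16 (-0.045 to 0.70, limma adjusted p = 0.212). For the type I chains the intervals were -0.67 to 0.09 for Col1a1 and -0.42 to 0.33 for Col1a2, and a p above the threshold does not show that the compounds act alike on them. Both PP242 arrays of the 8 lay below all 3 rapamycin arrays for Col1a1 (difference -0.29 ± 0.16, limma adjusted p = 0.277). The median of the 26 differences was 0.096, against 0.02 over all genes. On 12 arrays 0 of 34 collagens passed with limma and 1, Col5a3, had an unadjusted p under 0.05, where 0% and 3.94% of all genes did.

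Several collagens were set apart by replicate number. Some of these, such as Col6a1, Col6a2 and Col7a1, also passed in a treatment comparison without the replicate 4 arrays, as given below. On rapamycin 4 and DMSO 4, against the other rapamycin and DMSO arrays of the 8, 7 of 26 collagens (26.9%) differed by more than 1 on the log2 scale, where 8.75% of all genes did. These genes were chosen for this difference, so it is a description with no test. The type VI genes, whose chains build the beaded filaments around cells, were higher: Col6a1 was at 3.99 and 4.21 on rapamycin 4 and DMSO 4, against 2.53 to 2.81 on the other arrays, and Col6a2 at 2.71 and 2.72, against 1.00 to 1.12. Col18a1, the source of endostatin, was at -0.95 and -0.69 there, against -3.36 to -2.86. Col17a1, a transmembrane collagen of hemidesmosomes, was at -3.58 and -3.49, against -5.08 to -4.31.

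Col14a1, a FACIT collagen, was lower on those arrays, at -8.34 and -8.33, against -6.25 to -5.44, and was not well above background on either. Col7a1, which forms anchoring fibrils beneath the epidermis, was at -0.85 and -1.0, against 0.29 to 0.79, and Col8a1, a short chain collagen, at 4.39 and 3.58, against 5.22 to 5.55. The remaining array of that number, PP242 4, has raised dim probes and was at -0.95 for Col18a1, -0.23 for Col7a1 and 3.57 for Col8a1, while PP242 2 and 3 were at -3.21 and -3.13, 0.67 and 0.56, and 5.25 and 5.23. In these 3 genes PP242 4 lay to the same side of its group as rapamycin 4 and DMSO 4 of theirs. It also lay above PP242 2 and 3 for Col17a1 (-3.26, against -4.90 and -4.61) and Col6a2 (2.12, against 1.59 and 1.78). For Col6a1 (3.44, against 3.39 and 3.4) and Col14a1 (-5.26, against -5.13 and -5.13) it was close to them. The adipocyte, muscle and chondrocyte marker sums also differed on these arrays, and each sum was almost wholly 1 gene. The mean log2 level over the 8 arrays was 1.06 for Fabp4, with the other adipocyte markers at -7.22 or lower. For Acta1 it was 1.73, with the other muscle markers at -6.04 or lower. For Sox9 it was 1.03, with the other chondrocyte markers at -4.95 or lower. The 4 adipocyte markers summed to 0.104 to 0.185 on rapamycin 4 and DMSO 4, against 4.80 to 6.78 on the others. Fabp4, the adipocyte marker detected on every array, was at -2.83 on rapamycin 4 and -3.43 on DMSO 4, against 2.26 to 2.75 on the others. The 4 muscle markers summed to 0.79 to 1.37, against 4.92 to 6.69, with Acta1 at 0.43 on rapamycin 4 and -0.37 on DMSO 4, against 2.29 to 2.74. The 4 chondrocyte markers summed to 3.39 to 4.10, against 1.66 to 2.11, with Sox9 at 1.74 on rapamycin 4 and 2.01 on DMSO 4, against 0.68 to 1.02. In bulk cultures, fewer cells of a type and less RNA per cell cannot be told apart, and the part of these differences in the treatment comparisons was not tested.

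**Figure D4:**
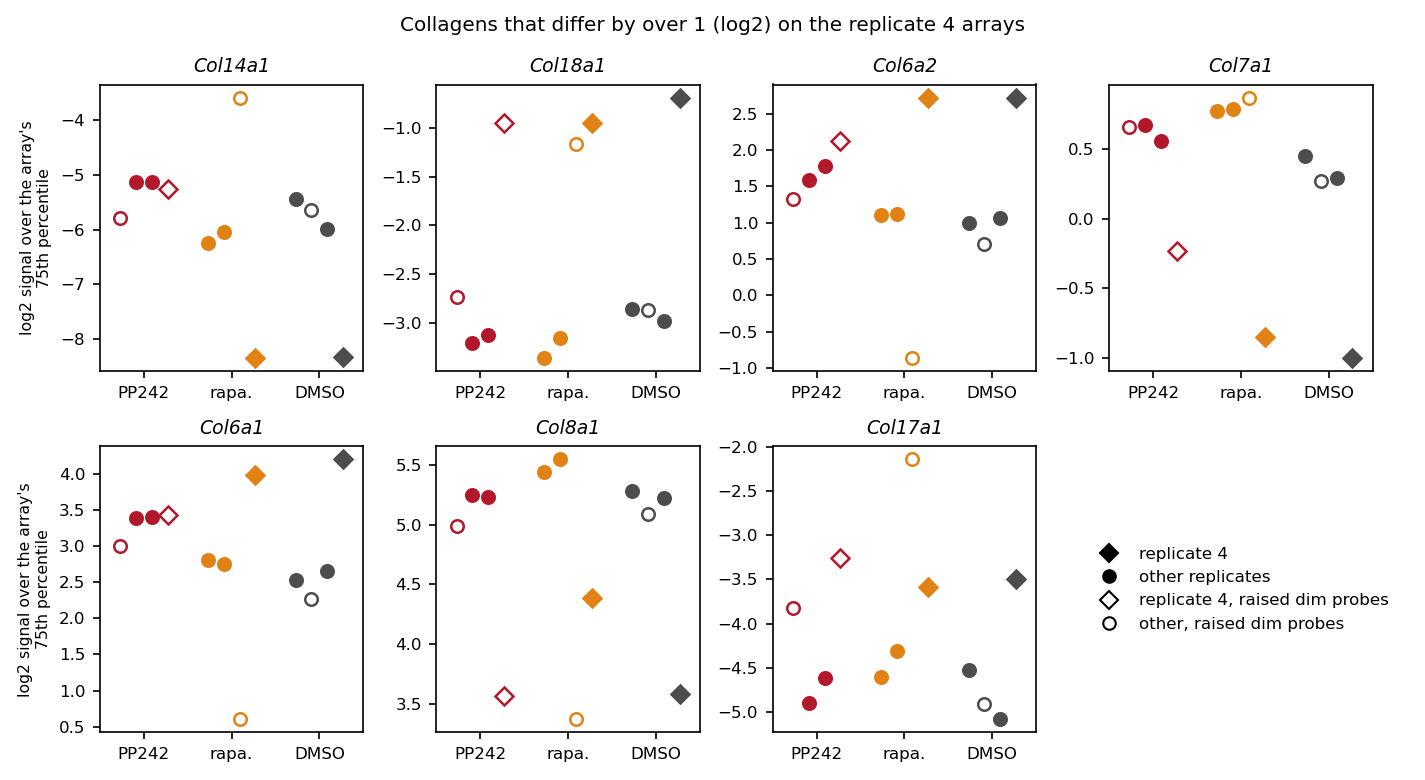
Log2 signal relative to each array's 75th percentile (vertical axis, own scale per panel) for the 7 collagens that differed by more than 1 on the log2 scale on the replicate 4 arrays; diamonds are replicate 4, circles the other replicates, and open symbols the arrays with raised dim probes. The rapamycin and DMSO diamonds lie apart from the filled circles of their groups in every panel, and close to each other except for Col8a1 (4.39 and 3.58).

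Without the replicate 4 arrays, an alternative added after the data were seen that leaves 2 arrays per group, more collagens passed, and so did more genes in general. For PP242 against DMSO 12 of 26 passed, 10 higher and 2 lower, where 52.8% of all genes passed. The 5 collagens called on 8 arrays were among them with the same direction (Col5a3 1.59, Col11a2 1.17, Col9a3 1.16, Col4a6 0.45 and Col4a1 -0.73), joined by Col3a1 (0.84 ± 0.11, limma adjusted p = 0.00402), Col5a1 (0.48 ± 0.073, limma adjusted p = 0.00607), Col16a1, Col27a1, Col6a1 and Col6a2, which were higher, and Col5a2, which was lower (-0.50 ± 0.06, limma adjusted p = 0.00291). For rapamycin against DMSO 5 collagens passed, all higher, where 14.2% of all genes passed: Col11a2 (0.63), Col3a1 (0.61), Col5a1 (0.52), Col7a1 (0.41) and Col16a1 (0.38), with limma adjusted p from 0.0142 to 0.0433. For PP242 against rapamycin 12 passed, 8 higher and 4 lower, where 39% of all genes passed.

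The genes that make, fold and bind collagen were then read from lists, whose counts stand beside 14.2% of all genes higher and 15.3% lower with PP242 against DMSO. These counts and differences are from the 8 arrays. In the fit of 12 arrays 0 genes of the lists passed with limma in any comparison. There 0.441% of all genes passed for PP242 against DMSO and 0% in the other comparisons. Of 11 tested genes for prolyl and lysyl modification of the chains, 4 fell with PP242 against DMSO, 0 rose, and the median difference was -0.24, against -0.016 over all genes. These were the prolyl 4-hydroxylase subunit genes P4ha2, at -0.82 ± 0.14 (limma adjusted p = 0.00731), and P4ha1, at -0.89 ± 0.21 (limma adjusted p = 0.0209), the lysyl hydroxylase gene Plod2, at -0.95 ± 0.18 (limma adjusted p = 0.0103), and the collagen galactosyltransferase gene Colgalt1, at -0.33 ± 0.086 (limma adjusted p = 0.0281). Of the brightest genes of this list that did not pass, Ppib differed by -0.089 and P4hb, the other prolyl hydroxylase subunit, by -0.50 (limma adjusted p = 0.105 for P4hb). In folding and secretion 1 of 8 rose, Creb3l1 (0.71, limma adjusted p = 0.0187), a factor that drives secretory and collagen genes, and 1 fell, Serpinh1 (-0.40, limma adjusted p = 0.0361), which encodes the collagen chaperone HSP47.

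In processing and crosslinking, against the same 14.2% of all genes higher, 2 of 7 rose: Adamts2, the procollagen N-proteinase, by 1.48 ± 0.22 (2.79-fold, limma adjusted p = 0.00397), and Loxl1, a lysyl oxidase-like enzyme, by 0.39 (limma adjusted p = 0.048). Among fibril-associated proteins 1 of 10 rose, Thbs2 (1.07, limma adjusted p = 0.00293). Among the partners of type IV collagen in basement membranes 5 of 9 rose and 0 fell, with a median of 0.57. They included the laminin chain genes Lamb2 (1.72 ± 0.25, 3.29-fold, limma adjusted p = 0.00361), Lamc3 (1.29, limma adjusted p = 0.0115) and Lama4 (0.65, limma adjusted p = 0.0278), and Hspg2, which encodes perlecan (0.57, limma adjusted p = 0.0142). The remaining gene, named after its value was seen, was Nid2, a nidogen (2.24 ± 0.65, limma adjusted p = 0.0414), while Nid1 (0.57, limma adjusted p = 0.281) and Agrn (0.035, limma adjusted p = 0.948) did not pass. Of the collagen receptors 2 of 5 rose, the endocytic receptor gene Mrc2 (1.00, limma adjusted p = 0.00455) and the integrin gene Itga11 (1.54, limma adjusted p = 0.0275). Of 13 genes of the TGF-beta pathway, a main inducer of fibroblast collagen, 2 rose (Smad3 by 0.77, limma adjusted p = 0.00278, and Tgfbr2 by 0.70, limma adjusted p = 0.0148) and 2 fell (Ltbp1, -0.42, limma adjusted p = 0.0356, and Smad2, -0.28, limma adjusted p = 0.041). A dimmer second Smad3 probe, well above background on all 8 arrays, differed by only 0.14.

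With rapamycin against DMSO 0 genes of these 7 lists passed with limma on the 8 arrays. An unadjusted p under 0.05 was seen for 3 of 11 modification genes, 1 of 8 folding genes, 3 of 7 processing genes, 4 of 10 fibril-associated genes, 1 of 9 basement membrane partners, 0 of 5 receptors and 2 of 13 TGF-beta genes, where 14.0% of all genes had one. Adamts2 differed by 0.76 ± 0.20 (limma adjusted p = 0.188) and Loxl1 by 0.33 ± 0.10 (limma adjusted p = 0.254). With PP242 against rapamycin 6 genes of the lists passed, where 16.4% of all genes did. Creb3l1 was higher by 0.98 (limma adjusted p = 0.0101), Lamb2 by 1.34 (limma adjusted p = 0.0153), Mrc2 by 0.89 (limma adjusted p = 0.0122), Thbs2 by 0.69 (limma adjusted p = 0.0237) and Smad3 by 0.47 (limma adjusted p = 0.026), and Ltbp1 was lower, at -0.65 (limma adjusted p = 0.0133). The second Smad3 probe differed by 0.041 in this comparison.

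Among the weakly detected members, Col28a1, which encodes a type VI-related chain, was well above background on rapamycin 1, 2 and 4 (-6.20, -5.21 and -5.85) and on no PP242 or DMSO array of the 8. Its mean of -7.64 on the PP242 arrays and -5.75 on the rapamycin arrays gave rapamycin at least 2.02-fold over PP242, and against DMSO (mean -7.22) rapamycin was at least 1.40-fold higher. The rapamycin and DMSO values of the 8 arrays did not overlap, where 19.2% of all genes tested had such separated groups. Col28a1 was named after its values were seen, so its folds and separation are descriptions with no test. The gene entered the fit of 12 arrays mainly through its 4 rapamycin arrays, the group where it was high, so its p there is no support. With those arrays rapamycin was at least 1.94-fold higher than DMSO (limma adjusted p = 0.858). Col24a1, a fibrillar gene, was at -7.44 and -9.14 on PP242 2 and 3, at -8.81, -5.25 and -8.66 on rapamycin 1, 2 and 4 and at -5.45, -4.76 and -8.50 on DMSO 1, 3 and 4. It was well above background on DMSO 1 and 3 and rapamycin 2, and the PP242 and DMSO values overlapped. On PP242 1 and 4, where dim probes were raised, it was well above background. Both genes were too seldom detected to enter the 8-array test, and a bound here compares the group mean with the dimmest signal called well above background on each array.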

How the data were processed

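RNA of NIH3T3 cells was hybridised to 12 one-colour Agilent arrays, 4 per group, on 3 slides. The deposited intensity values come from Feature Extraction 10.5.1.1 per the file headers (10.1 per the submitters' processing notes), with the processed signal already background-subtracted and detrended within the array. The authors also deposited a log2 table of the same arrays, whose column medians lie between 8.54 and 8.56 and whose ranks match those of the median spot signal (Spearman 0.9999 or more); it served as an alternative, with its centring not given in the sources used here.

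From the processed signals, log2 values were taken minus each array's 75th percentile over probes that are not controls. Spots marked as outliers by the software (1.52% of values) were left out, spots of a probe were averaged, and a gene was taken as its brightest probe. Symbols came from a RefSeq gene table (GRCm38.p6) through 26382 probe accessions, of which 24844 matched; the array header names mm9. The test, with a minimum of 4 fitted arrays on which a probe was well above background, used limma 3.58.1 in R 4.3.3, with the 3 groups in 1 fit and Benjamini-Hochberg adjustment over all genes at 0.05. The fit was made on the 8 arrays whose 75th percentile exceeded their 25th by over 100-fold and again on all 12. The script was tested on simulated data. Replicates are 4 cultures a group, and their number limits the precision.

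The members, the lists of other genes and the choice of the 8 arrays were made with earlier results of these data known. Named in full were members past the threshold in either fit, plus Col1a1, Col1a2, Col3a1, Col4a1, Col4a2 and Col5a1; in each other list up to 4 passing genes by adjusted p and up to 2 not passing by level. Members set apart by replicate 4, and Col28a1, Col24a1 and Nid2, were named after their values were seen.

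Alternatives were quantile normalisation, median centring, normexp (offset 50) on the median spot signal, the deposited table, other filters and probe rules, only the groups compared, an intensity trend, array weights, slide or replicate as a block, and leaving out arrays.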

Additional observations from a re-analysis of the deposited data

Results flagged for a closer look

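Among 17 collagens (the named members and those set apart by replicate 4), 50 groups of 4 arrays were examined for an array far from the rest of its group, by its gap relative to the group's range, and 13 stood out. Chance gives about 1 in 20 groups, a rate that does not apply to the 7 genes chosen because replicate 4 lay apart, which gave 7 of the 13. The named members gave the other 6, all on rapamycin 3. Of the 13, 9 were on arrays with raised dim probes and 6 on arrays of replicate 4.

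Rapamycin 3 lay far below the other rapamycin arrays for Col1a1 (3.83), Col1a2 (5.37), Col4a1 (0.32) and Col5a1 (1.49), and far above them for Col9a3 (-1.40) and Col11a2 (-1.81). It is the array with the highest share of probes well above background, 97.9%. Among the arrays of replicate 4, DMSO 4 was far above its group for Col18a1 (-0.69) and far below it for Col7a1 (-1.0) and Col8a1 (3.58). Rapamycin 4 was far below its group for Col7a1 (-0.85), and PP242 4 for Col7a1 (-0.23) and Col8a1 (3.57). PP242 1 was below its group for Col6a1 (3.01).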

How the results depend on the processing

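The precision is limited by 2 PP242 arrays among the 8, by dim members near background and by the raised dim probes on 4 arrays. No collagen value that was called changed sign under any alternative. On the 8 arrays, 5 collagens were called for PP242 against DMSO: 3 were called with normexp, 0 with slide as a block and 12 without the arrays of replicate 4, and leaving out 1 array gave 0 to 8 (8 without DMSO 4, 1 without PP242 2 and 0 without PP242 3). For PP242 against rapamycin 2 were called: 1 with no filter, 0 with slide as a block, 12 without the arrays of replicate 4, and 0 to 4 when 1 array was left out (4 without DMSO 4, 1 without rapamycin 1 or rapamycin 2, 0 without PP242 2 or PP242 3). For rapamycin against DMSO 0 were called, and 5 without replicate 4. Of the settings other than leaving out 1 array, Col4a6 lost its call in 6 of 12, Col9a3 and Col11a2 in 2 each, and Col4a1 and Col5a3 in 1 each. Leaving out replicate 4 was added after the data were seen.

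On 12 arrays 0 were called in each comparison. For PP242 against DMSO the count was 1 with probes well above background on every array, 2 with only the groups compared, 12 with array weights and 0 to 4 when 1 array was left out (4 without rapamycin 3). For PP242 against rapamycin it was 9 with array weights and 0 to 2 when 1 array was left out (2 without rapamycin 3), and for rapamycin against DMSO 6 with array weights. Array weights called 9111 of 23803 genes for PP242 against DMSO, 7139 for PP242 against rapamycin and 2666 for rapamycin against DMSO. Median centring moved the median of all genes for PP242 against DMSO to -0.55, where it was 0.34, and that of the collagens to -0.44, where it was 0.45. The cause of these differences was not tested.

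With a replicate block on the 8 arrays 8 collagens were called for PP242 against DMSO, 4 for PP242 against rapamycin and 0 for rapamycin against DMSO, and 0 on 12 arrays in each comparison. The numbers were not taken to pair the samples, and the correlations of same-numbered arrays' deviations do not settle whether they do. These ran from -0.90 to 0.79 over the 12 arrays, raised arrays included. Among the 8 the correlation was 0.75 for DMSO 4 and rapamycin 4 and 0.62 for DMSO 1 and rapamycin 1, which share a slide. DMSO 3 and rapamycin 2, of unlike number, gave 0.53. It was 0.18 for DMSO 3 and PP242 3 and -0.31 for rapamycin 2 and PP242 2. With only 2 PP242 arrays, their deviations from the group mean mirror each other, and rapamycin 2 gave 0.31 with PP242 3. The pairs with PP242 among the 8 therefore cannot decide the question.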
